A study of Mus musculus with 30 samples.

Results

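The lysosomal genes described here were 38 listed genes for hydrolases, membrane proteins and 2 transcription factors of the lysosome, read on arrays of gonadal white adipose tissue, a depot of visceral fat. Each gene was read from the single-symbol probe set with the highest mean over all 30 arrays. That gave 37 measured genes, out of 22180 genes with such a probe set on the array. Glb1, the acid beta-galactosidase, had only a probe set shared with Tmppe and was left out of all expression counts, but not of the promoters below.

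All mice were male, wild type C57BL6/J and 35 weeks old, with 6 arrays per group. Lean mice ate a control diet, in which fat gave 10.5% of the energy, for 27 weeks. Obese mice ate a high-fat, high-sucrose diet (HFD), in which fat gave 58%, over the same 27 weeks. Formerly obese mice ate HFD for 20 weeks and control diet for the 7 weeks after. Lean-HFD mice had the control diet of the lean mice and then HFD for 48 h, and formerly obese-HFD mice had the history of the formerly obese mice and then HFD for 48 h. The comparisons ask what long-term HFD changed, what was left after the diet switch and what 48 h of HFD did after either history.

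The lysosome is the acidic compartment in which cells break down proteins, glycans and lipids taken up from outside or delivered by autophagy. Its soluble enzymes are mostly carried there by mannose 6-phosphate receptors, and its membrane holds heavily glycosylated proteins, channels and cholesterol transporters. Tfeb and its relative Tfec belong to a family of transcription factors, of which TFEB is known for binding E-box motifs in promoters of many lysosomal genes. In fat tissue, macrophages are known to be rich in lysosomes and to take up lipid from dying adipocytes.

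Sequences are given here because the E-box core CACGTG, which was no criterion for choosing the genes, is shared by part of them. RefSeq promoters (250 bases before to 50 after a start, build GRCm38.p6) were found for 34 of the 38 genes. At least 1 promoter of 10 of these 34 genes (29.4%) held CACGTG, which reads the same on both strands, against 2187 of 27025 genes in the table (8.09%). The longer palindrome TCACGTGA, which contains that core, was in promoters of 4 of the 34 genes (11.8%) and of 304 of all 27025 (1.12%). In each stretch below the core is in capitals, and each is read in the direction of its gene from the bases before the start. The first 3 lines are genes that rose in obese mice, and the next 5 are genes that were not called there.
Ctsl: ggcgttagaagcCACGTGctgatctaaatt
Lgmn: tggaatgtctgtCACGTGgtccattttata
Gla: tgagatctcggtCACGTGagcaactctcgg
Ctsd: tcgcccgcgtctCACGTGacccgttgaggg
Gaa: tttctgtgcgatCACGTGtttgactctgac
Sgsh: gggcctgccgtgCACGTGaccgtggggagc
Lamp1: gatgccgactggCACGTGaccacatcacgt
Mcoln1: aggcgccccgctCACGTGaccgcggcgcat

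These stretches lie at chr13:64370739-64370768 (Ctsl, minus strand), chr12:102439124-102439153 (Lgmn, minus strand), chrX:134601182-134601211 (Gla, minus strand) and chr7:142387908-142387937 (Ctsd, minus strand). The others lie at chr11:119267811-119267840 (Gaa, plus strand), chr11:119355522-119355551 (Sgsh, minus strand), chr8:13159121-13159150 (Lamp1, plus strand) and chr8:3500462-3500491 (Mcoln1, plus strand). Lamp1 held 4 matches of the core in 1 promoter. A match is a description of the letters and not a binding site. The core was in promoters of 4 of 13 genes that rose in obese mice against lean mice (30.8%) and of 5 of 20 genes that were not called (25%). It was also in promoters of 10 of 34 other lysosomal genes (29.4%). The promoters of Ctsk, Ctss and Lipa, the members with the largest folds in obese mice, held no match.

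**Figure D1:**
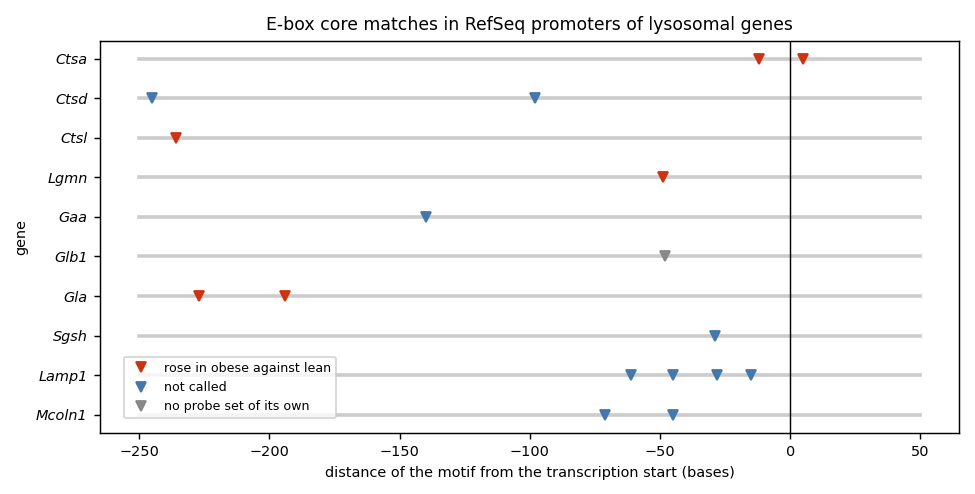
Position of each E-box core match (triangles) in RefSeq promoters of the 10 lysosomal genes that held one, in bases from the transcription start, with grey lines for the window searched. Lamp1 has 4 matches close to the start, while the match of Ctsl lies near the far end of the window, and the 10 include genes that rose in obese mice (red), genes not called (blue) and Glb1 (grey).

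Before the results, marker lists were read on each array, since fat tissue holds several cell types and fewer cells of a type and less RNA per cell cannot be told apart in bulk samples. Adipocyte markers were present on all arrays, with all 11 measured genes over the level filter (a log2 level of 4) in every group and summed linear levels of 25847 to 34582. The summed level of 15 macrophage markers ran from 7125 to 9109 in lean, 11003 to 17218 in obese, 7765 to 13541 in formerly obese, 6538 to 8285 in lean-HFD and 6131 to 15307 in formerly obese-HFD arrays. Transcripts typical of hepatocytes were high on some arrays, with a summed level of 15 genes from 1350 to 27951 in lean-HFD, 858 to 11879 in lean and 512 to 1677 in obese arrays. A further list held 6 genes typical of the epididymis (Defb20, Rnase9, Rnase10 and Lcn5) or of sperm cells (Prm1 and Tnp1). Their transcripts summed to 2175 on lean 2, against 123 to 236 on the other lean arrays, and to 1890 on lean-HFD 1. The highest sum in the other groups was 897, on obese 3. Lean 2 was the lowest lean array for 22 of the 37 lysosomal genes, and the part of epididymis and sperm cell transcripts was not tested. Nothing in the labels placed arrays in batches.

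**Figure D2:**
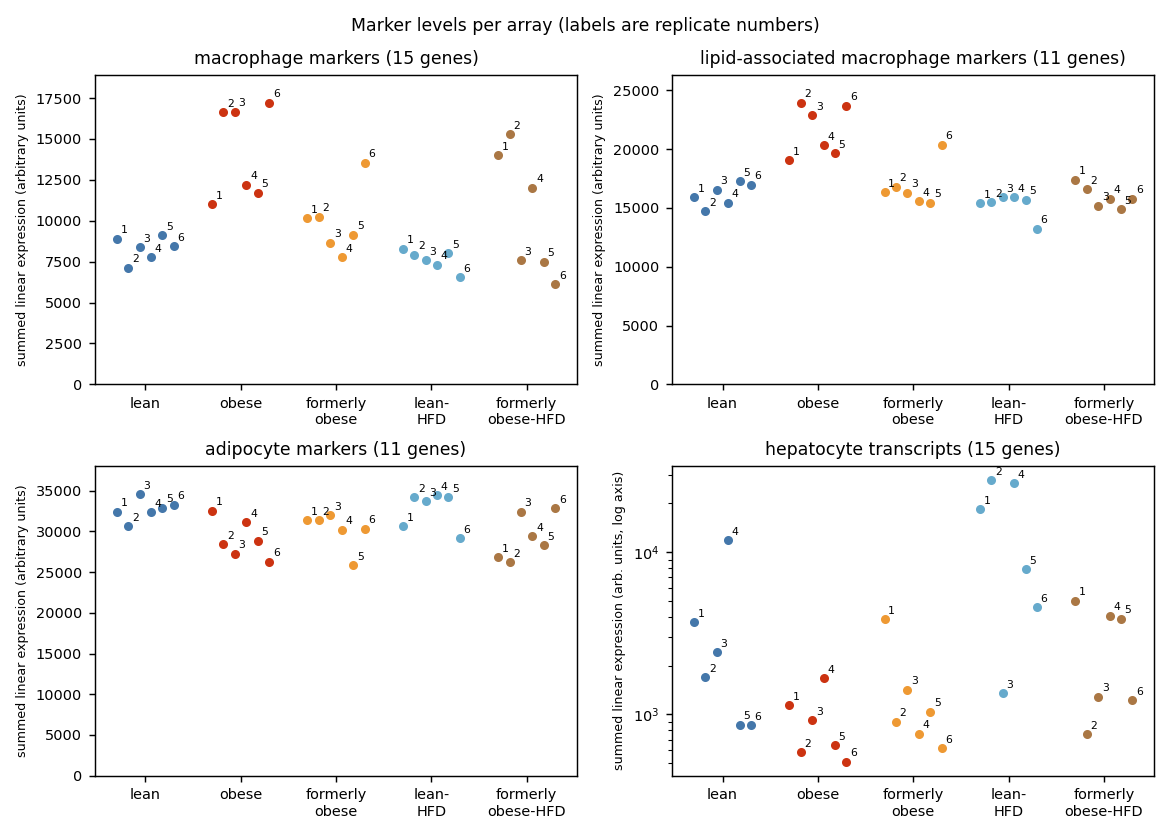
Summed linear expression of 4 marker lists in each of the 30 arrays, labelled with the replicate number, on axes that start at 0 except for the hepatocyte panel, which has a log axis. Within their groups, macrophage markers are highest in obese 2, 3 and 6, formerly obese 6 and formerly obese-HFD 1, 2 and 4, and hepatocyte transcripts are highest in lean-HFD 1, 2 and 4.

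Obese mice had higher expression of 16 of the 37 lysosomal genes than lean mice, and of none lower. The gene with the largest fold was Ctsk, which codes for the collagen-cleaving cathepsin K, followed by Lipa, the acid lipase of cholesteryl esters and triglycerides, and Ctss, the cathepsin that trims antigen-presenting complexes. A gene was called, and is said to have risen or fallen, where limma's adjusted p over all 41345 probe sets was under 0.10, the fold was over 1.3 and the mean level was over 16 (log2 4) in 1 of the groups. Under that rule 3.93% of all probe sets rose and 2.11% fell. Among genes over the level filter with 1 probe set each, 7.05% rose, and all 37 members were over that filter. The median difference was 0.31 log2 over the 37 genes and -0.02 over all genes, and 32 of the 37 were higher in obese mice. Calls were spread unevenly over the roles, with 8 of 11 proteases, 4 of 8 glycosidases and 4 of 8 lipid-handling genes, and 0 of 3 sulfatases, 0 of 5 membrane proteins and 0 of 2 transcription factors. A difference between roles was not tested. With the score of hepatocyte transcripts as a covariate, 12 genes rose, and Ctsa, Ctsh, Ctsz and Hexa lost their calls. All 6 obese arrays lay above all 6 lean arrays for 18 of the 37 genes, against 3.09% of all probe sets.

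**Figure D3:**
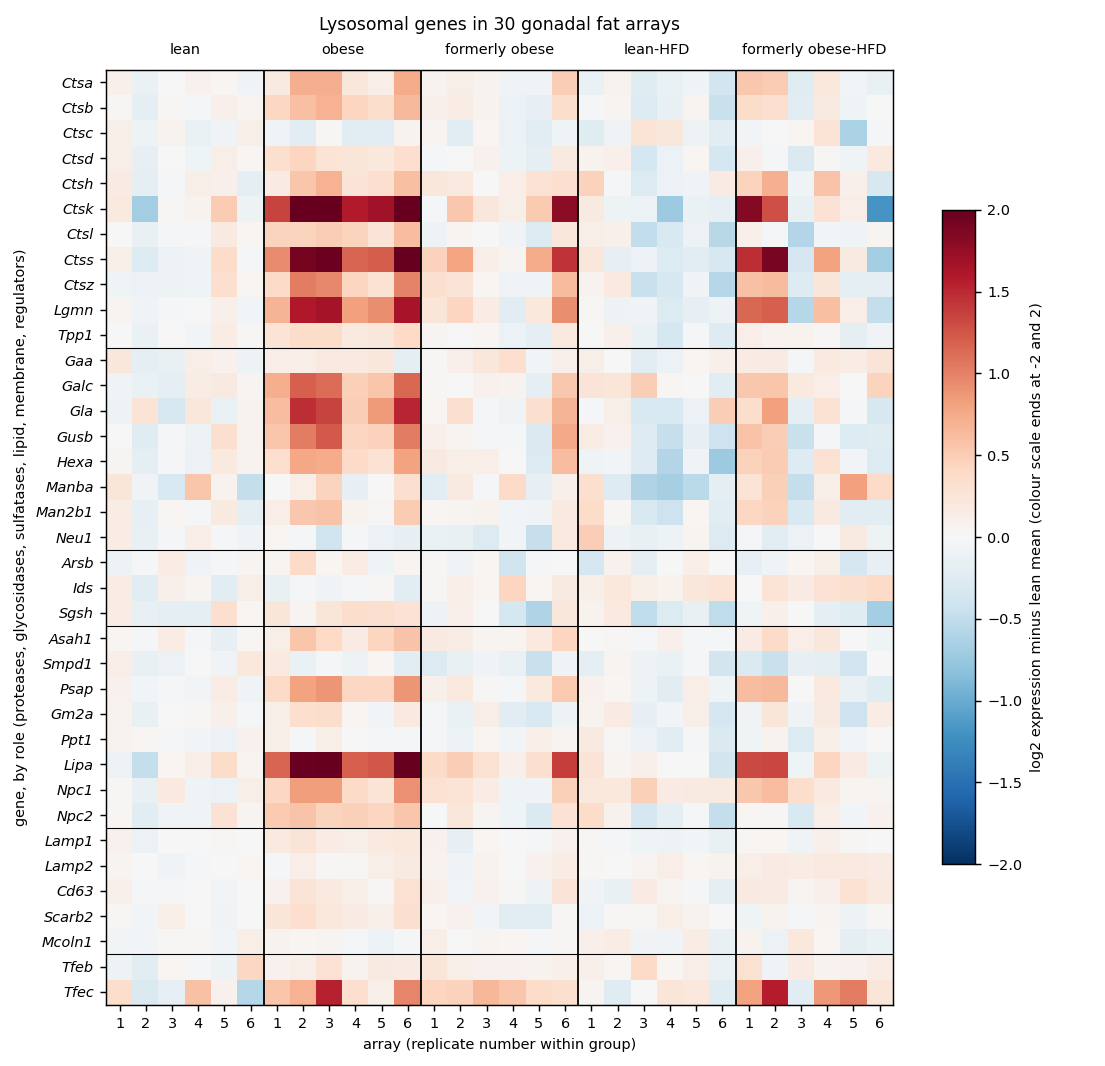
Log2 expression of the 37 lysosomal genes (rows, by role) on the 30 arrays (columns, by group and replicate number) minus the mean of the lean arrays, in red for higher and blue for lower values. The obese columns are darkest for Ctsk, Ctss, Lgmn and Lipa, formerly obese 6 and formerly obese-HFD 1 and 2 show the same rows in red, and Lamp2, Mcoln1 and Ppt1 stay pale throughout.

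Of the proteases, Ctsk had a log2 expression of 5.84 to 7.06 (median 6.59) in lean arrays and of 7.89 to 9.56 (median 8.77) in obese arrays. The groups did not overlap, and the difference was 2.21 ± 0.31 log2 (SE of the limma fit, n = 6 arrays per group), a 4.64-fold rise (adjusted p = 0.00145). Ctss lay at 9.37 to 10.02 (median 9.59) in lean and at 10.59 to 11.69 (median 11.21) in obese arrays, a 2.91-fold rise (adjusted p = 9.2e-04). Ctsk and Ctss are neighboring genes in the mouse genome. Lgmn, the asparagine-cleaving legumain that matures other cathepsins, lay at 8.44 to 8.61 (median 8.49) in lean and at 9.19 to 10.17 (median 9.77) in obese arrays. Its lean arrays were within a narrow band, and the rise was 1.22 ± 0.18 log2, or 2.33-fold (adjusted p = 0.00160).

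The other proteases that rose did so by less than 1 log2. Ctsb, an abundant cathepsin with both endo- and exopeptidase activity, had a range of 11.24 to 11.52 (median 11.44) in lean and of 11.76 to 12.12 (median 11.93) in obese arrays. The rise of 0.52 ± 0.08 log2 (adjusted p = 0.00250) was small in fold (1.44) but separated the groups. Ctsl, a broad endopeptidase, lay at 10.81 to 11.13 (median 10.94) against 11.21 to 11.56 (median 11.39), a difference of 0.45 ± 0.08 log2 (adjusted p = 0.00425). Ctsz, a carboxypeptidase, was the only gene that rose while its groups overlapped. Its lean arrays lay at 8.85 to 9.31 (median 8.88) and its obese arrays at 9.27 to 9.99 (median 9.66), with a difference of 0.68 ± 0.15 log2 (adjusted p = 0.0162). The overlap came from lean 5 alone. Ctsh, an aminopeptidase, lay at 8.40 to 8.74 (median 8.63) against 8.76 to 9.29 (median 9.03), with a difference of 0.44 ± 0.11 log2 (adjusted p = 0.0301). Ctsa, the protective protein that binds and stabilizes beta-galactosidase and neuraminidase, lay at 9.18 to 9.41 (median 9.33) against 9.45 to 10.06 (median 9.79), with a difference of 0.45 ± 0.12 log2 (adjusted p = 0.0513). The call of Ctsa was lost on leaving out lean 2, obese 2, obese 3 or obese 6 (adjusted p = 0.103, 0.113, 0.114 and 0.116).

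The other 3 proteases were not called. Ctsd, the main aspartic protease of the lysosome, had a difference of 0.30 ± 0.07 log2 (adjusted p = 0.0236) and Tpp1, a tripeptidyl peptidase, one of 0.31 ± 0.07 log2 (adjusted p = 0.0196). Both passed the adjusted threshold and had no overlap of obese and lean arrays, but their folds of 1.23 and 1.24 stayed under 1.3. Ctsc, which activates serine proteases of granulocytes and other immune cells, was the exception among the proteases. Its obese arrays lay at 9.74 to 10.03 and its lean arrays at 9.84 to 10.08, a difference of -0.10 log2 with a 95% interval of -0.28 to 0.07.

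Among the glycosidases, Gla, the alpha-galactosidase that acts on globotriaosylceramide, lay at 6.19 to 6.79 (median 6.49) in lean and at 7.01 to 8.03 (median 7.61) in obese arrays. It rose by 1.05 ± 0.19 log2, or 2.08-fold (adjusted p = 0.00589). Galc, which cleaves galactosylceramide, lay at 6.57 to 6.92 (median 6.74) in lean and at 7.23 to 7.94 (median 7.66) in obese arrays, a 1.83-fold rise (0.87 ± 0.14 log2, adjusted p = 0.00267). Both enzymes remove galactose from sphingolipids, and for both the lowest obese array was above the highest lean array. Gusb, the beta-glucuronidase, lay at 7.62 to 8.18 (median 7.84) against 8.30 to 9.08 (median 8.65) and rose by 0.79 ± 0.15 log2 (adjusted p = 0.00790). Hexa, the alpha subunit of beta-hexosaminidase, lay at 9.23 to 9.60 (median 9.42) against 9.70 to 10.21 (median 9.97) and rose by 0.56 ± 0.11 log2 (adjusted p = 0.0111). The 4 glycosidases that were not called had differences from -0.12 (Neu1, the sialidase) to 0.30 log2 (Man2b1, an alpha-mannosidase). Gaa, the acid alpha-glucosidase that degrades glycogen, had a difference of 0.11 log2 (95% interval -0.10 to 0.32), and Manba, the beta-mannosidase, one of 0.12 log2 (-0.23 to 0.48).

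The sulfatases did not pass in obese against lean mice. Sgsh and Ids, which remove sulfate from heparan sulfate, had differences of 0.25 and -0.08 log2, and Arsb, which acts on dermatan sulfate, had one of 0.10 log2. Their 95% intervals were 0.03 to 0.46, -0.26 to 0.11 and -0.08 to 0.28.

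Of the genes for lipid handling, Lipa lay at 8.28 to 9.12 (median 8.81) in lean and at 9.93 to 10.77 (median 10.37) in obese arrays. The gap between the highest lean and the lowest obese array was wide, and the rise was 1.60 ± 0.19 log2, or 3.03-fold (adjusted p = 6.3e-04). Npc1 and Npc2 hand cholesterol on from the lysosome, Npc2 as the soluble carrier and Npc1 as the membrane transporter. Npc1 lay at 6.71 to 7.06 (median 6.84) in lean and at 7.14 to 7.77 (median 7.49) in obese arrays, and rose by 0.61 ± 0.12 log2 (adjusted p = 0.0105). A dimmer probe set of Npc1 had a difference of 0.30 ± 0.10 log2 and was not called (adjusted p = 0.117). Npc2 lay at 11.46 to 11.97 (median 11.67) in lean and at 12.12 to 12.26 (median 12.19) in obese arrays, where its 6 values were close together, and rose by 0.50 ± 0.08 log2 (adjusted p = 0.00367). Psap, the precursor of the saposins that help sphingolipid hydrolases reach their substrates, lay at 10.44 to 10.66 (median 10.47) against 10.90 to 11.40 (median 11.13) and rose by 0.63 ± 0.11 log2 (adjusted p = 0.00469). The other 4 were not called. Asah1, the acid ceramidase, reached an adjusted p of 0.0342 with a fold of 1.29, and Gm2a, Ppt1 and Smpd1 had differences of 0.17, 0.03 and -0.05 log2. Gm2a is the activator of ganglioside breakdown, Ppt1 removes palmitate from proteins and Smpd1 is the acid sphingomyelinase.

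The 5 membrane proteins had differences of 0.23 log2 or less. Lamp1, a main glycoprotein of the lysosomal membrane, lay at 10.83 to 11.04 in lean and at 11.07 to 11.21 in obese arrays, with no overlap but a fold of 1.14. Scarb2, the receptor that carries glucocerebrosidase, had a fold of 1.17. Both passed the adjusted threshold (0.0958 and 0.0596). Lamp2 and the tetraspanin Cd63 had differences of 0.07 (95% interval -0.06 to 0.20) and 0.16 log2 (0.01 to 0.30). For Mcoln1, the calcium channel of the lysosomal membrane, the difference was close to 0, with an interval of -0.14 to 0.14 log2. Its lean arrays lay at 7.93 to 8.12 (median 7.98), its obese arrays at 7.87 to 8.07 (median 8.00) and its formerly obese arrays at 7.96 to 8.12 (median 8.03).

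Neither transcription factor was called in obese against lean mice. Tfeb had a low level, somewhat under the array medians of 4.85 to 4.97. It lay at 4.17 to 4.79 (median 4.31) in lean, 4.45 to 4.67 (median 4.53) in obese and 4.45 to 4.63 (median 4.48) in formerly obese arrays. Its difference in obese mice was 0.15 log2 with a 95% interval of -0.06 to 0.37. Tfec, a family member with known expression in macrophages, lay at 4.59 to 5.75 (median 5.12) in lean, 5.28 to 6.71 (median 5.78) in obese and 5.48 to 5.83 (median 5.61) in formerly obese arrays. The obese difference of 0.70 ± 0.25 log2 was as large as that of several genes that rose. Lean and obese arrays were both widely spread, and the test missed (adjusted p = 0.130). It passed with all 30 arrays in 1 fit, with adjustment over single-symbol probe sets and on leaving out lean 4 or obese 5.

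Markers of macrophages moved with these genes in obese mice. Of the 15 macrophage markers, 10 rose and 1, Cd163, fell, and of 11 markers of lipid-associated macrophages 8 rose. The markers with the smallest p were Mpeg1 (1.84 ± 0.19 log2), Cd68 (1.71 ± 0.20 log2) and Tyrobp (1.08 ± 0.13 log2) of the former list and Atp6v0d2 (4.55 ± 0.37 log2), Gpnmb (3.49 ± 0.32 log2) and Itgax (2.88 ± 0.28 log2) of the latter. Of 11 adipocyte markers 1 rose (Lep) and 4 fell (Slc2a4, Retn, Lipe and Plin4), and of 8 fibroblast markers 5 rose (Lum, Col1a1, Col3a1, Thy1 and Pi16) and 1 fell (Dpp4). Of 8 mesothelial markers 2 fell (Wt1 and Gpm6a), with summed levels of 597 to 1502 in obese and 1134 to 1899 in lean arrays. Of 9 granulocyte and mast cell markers 1 rose (S100a8, by 1.86 log2), of 7 T cell markers 1 rose (Themis) and of 15 hepatocyte transcripts 1 fell (Apoa1), while no marker of endothelial or B cells was called. Obese 2, 3 and 6 had the highest summed macrophage levels (16635, 16674 and 17218, against 11003 to 12197 in the others). The same 3 arrays were the highest obese arrays for 14 of the 16 lysosomal genes that rose, with Ctsl and Npc2 as the exceptions, and for 6 of the 21 that were not called. The part of any of these cells in the result was not tested.

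Of other genes of the lysosome, outside the 38, 40 were measured (47 listed), of which 8 rose and 2 fell. Of all probe sets 3.93% rose and 2.11% fell, and of genes over the level filter 7.05% and 3.74%. The median difference of the 40 genes was 0.19 log2, and a difference in calls from the 37 genes was not tested. Cd68, a lysosomal membrane protein that also stands in the macrophage list, and Igf2r, a mannose 6-phosphate receptor that delivers hydrolases, rose by 1.71 and 0.62 ± 0.09 log2. Creg1, a lysosomal glycoprotein, Laptm5, a lysosomal membrane protein of blood cells, and Acp2, an acid phosphatase, rose by 0.65, 0.83 and 0.40 log2. Ostm1, a subunit of a lysosomal chloride transporter, had a difference of 0.37 log2 and a fold of 1.29, and was not called. Sort1, a sorting receptor for lysosomal cargo that is also part of the glucose transporter vesicles of adipocytes, fell by 0.48 log2 (adjusted p = 0.0194), and the other gene that fell was Acp5, an acid phosphatase of osteoclasts and macrophages, by 0.38 log2. Among 7 measured inhibitors of cathepsins only Cstb was called. Cstb, an intracellular inhibitor of cathepsins B, L and S, rose by 0.87 ± 0.09 log2 (adjusted p = 3.2e-04).

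**Figure D4:**
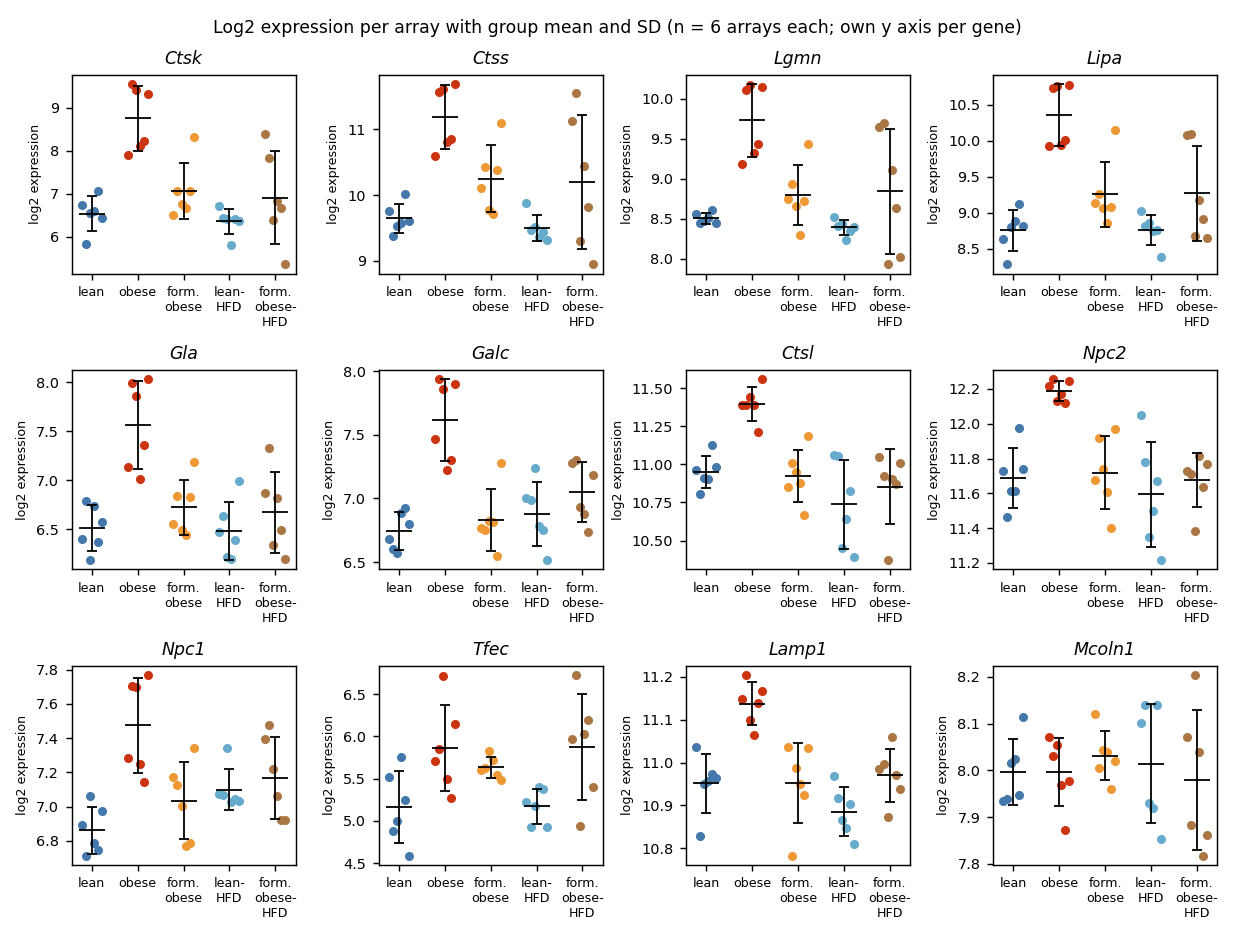
Log2 expression of 12 lysosomal genes in each array (points), by group, with the group mean (bar) and SD (whiskers), n = 6 arrays per group and a separate y axis for each gene. Obese arrays lie above all lean arrays in every panel but Tfec and Mcoln1, and the spread of Ctsk, Ctss, Lgmn and Lipa is widest in formerly obese-HFD arrays.

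After 7 weeks of control diet, no lysosomal gene was called against lean mice in either direction. No probe set of the array was called in this comparison (0% up and 0% down), so the count of 0 is no property of these genes. With the same adjusted p and fold thresholds the paper reports Vcam1, Lyz1, H2-q5, Fbn1, Nmb and Gm26523 for this comparison. Why none of them was called here was not tested. At an unadjusted p under 0.05 in limma, 5 genes were higher and 0 lower, against 3.78% of all probe sets higher and 3.14% lower. At an unadjusted p under 0.01 with the fold and level filters the count was 0, against 0.740% of all probe sets up and 0.239% down. The median difference from lean was 0.06 log2 over the 37 genes, with 27 higher and 10 lower, and -0.02 over all genes. The 5 genes were Ctss, Tfec, Lipa, Ctsh and Asah1. Ctss lay at 9.71 to 11.09 (median 10.24) in formerly obese arrays, with a difference of 0.60 ± 0.21 log2 and an adjusted p of 0.600. Its 95% interval was 0.16 to 1.05 log2, and 6 of 6 formerly obese arrays were above the lean mean. Lipa lay at 8.86 to 10.15 (median 9.11), with a difference of 0.50 log2 (0.07 to 0.93) and an adjusted p of 0.657. Tfec had a difference of 0.47 log2 (0.10 to 0.83) with an adjusted p of 0.614.

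The other genes that rose in obese mice had differences from lean of -0.03 to 0.53 log2 in formerly obese mice, and all of their 95% intervals but that of Ctsh included 0. Lgmn differed by 0.29 log2 (-0.03 to 0.61), Gla by 0.21 (-0.10 to 0.52), Ctsz by 0.18 (-0.10 to 0.46), Npc1 by 0.17 (-0.06 to 0.41) and Psap by 0.17 (-0.03 to 0.37). All of these were above 0 but smaller than in obese mice. Npc2 differed from lean by 0.03 log2 (-0.21 to 0.27), Ctsl by -0.03 (-0.22 to 0.17), Galc by 0.09 (-0.16 to 0.34) and Gusb by 0.10 (-0.24 to 0.43). For Ctsk the interval was wide, at 0.53 log2 (-0.09 to 1.14). Of its 6 formerly obese arrays, 5 lay at 6.50 to 7.08 and formerly obese 6 at 8.33, which is within the obese range. Formerly obese 6 was the highest array of its group for 25 of the 37 genes and had the highest summed macrophage level of its group (13541, against 7765 to 10253 in the others). The part of macrophages in these values was not tested.

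**Figure D5:**
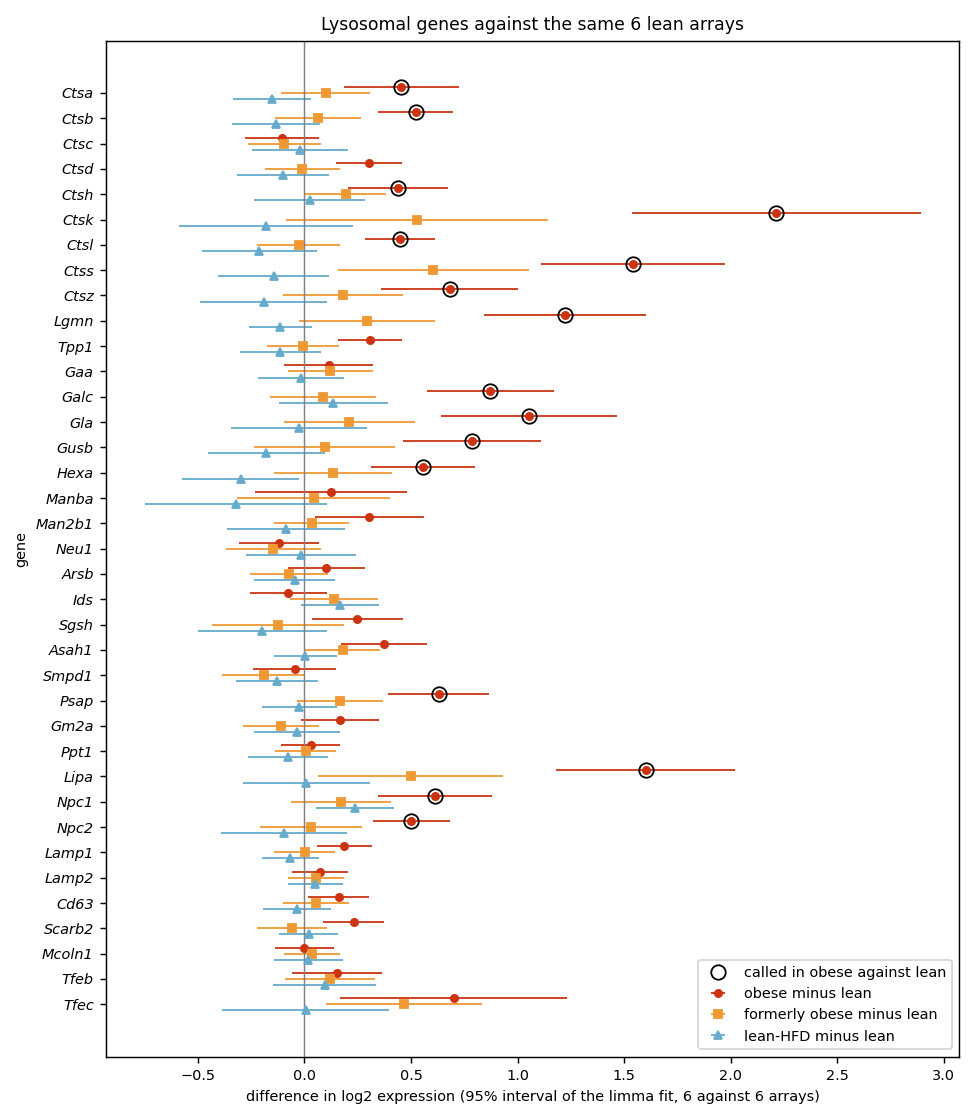
Difference in log2 expression from the same 6 lean arrays for each lysosomal gene in obese, formerly obese and lean-HFD mice, with 95% intervals of the limma fit and rings around genes called in obese mice. Obese differences of the 16 ringed genes run from 0.44 to 2.21, while the formerly obese interval excludes 0 for 5 genes and the lean-HFD interval for 2.

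Set directly against obese mice, formerly obese mice had lower expression of 12 of the 37 genes and higher expression of 0. In this comparison 3.17% of all probe sets fell and 2.02% rose. Of genes over the level filter with 1 probe set each, 5.96% fell and 3.13% rose. The median difference was -0.29 log2 over the 37 genes and 0.01 over all genes. By role, 5 proteases, 3 glycosidases and 4 lipid-handling genes fell. Both this comparison and that of obese with lean mice use the same 6 obese arrays, so the fall in one is not independent of the rise in the other.

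Ctsk fell by 1.69 ± 0.36 log2 (adjusted p = 0.0203), Lipa by 1.10 ± 0.23 (adjusted p = 0.0183), Ctss by 0.94 ± 0.26 (adjusted p = 0.0593) and Lgmn by 0.93 ± 0.22 log2 (adjusted p = 0.0308). The formerly obese range of Lgmn was 8.29 to 9.43 (median 8.74), and its highest array reached into the obese range, as in Ctsk, Lipa and Ctss. Gla, Galc and Gusb fell by 0.84, 0.78 and 0.69 log2, and lay at 6.44 to 7.18 (median 6.69), 6.55 to 7.28 (median 6.79) and 7.57 to 8.61 (median 7.87) in formerly obese arrays. Smaller falls were those of Ctsl (0.47), Npc2 (0.47), Ctsb (0.46), Psap (0.46) and Npc1 (0.44 log2). Ctsl, at 10.67 to 11.18 (median 10.91), and Npc2, at 11.40 to 11.97 (median 11.71), were the only called genes whose formerly obese arrays all lay below all obese arrays. Ctsd, Tpp1, Lamp1 and Scarb2 did not overlap either but had folds under 1.3, and Lamp1 also missed the adjusted threshold (adjusted p = 0.123). In all 6 of the 37 genes did not overlap, against 2.41% of all probe sets.

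The remaining formerly obese ranges of genes that fell were 11.25 to 11.78 (median 11.50) for Ctsb, 10.49 to 11.04 (median 10.66) for Psap and 6.77 to 7.34 (median 7.07) for Npc1. Genes that rose in obese mice but were not called here were Ctsa, Ctsh, Ctsz and Hexa, with differences of -0.36, -0.24, -0.50 and -0.42 log2. The calls of Ctss, Gusb, Psap and Npc1 were the weakest, since each was lost on leaving out obese 2, obese 3, obese 6, formerly obese 3 or formerly obese 4, where 8 genes fell. Without formerly obese 1, 9 genes fell (Ctss, Psap and Npc1 were lost). The same 4 calls were lost with the hepatocyte score as a covariate. That of Npc1 was also lost without formerly obese 2 or formerly obese 5. The dimmer probe set of Npc1 differed by -0.17 ± 0.11 log2 here and was not called (adjusted p = 0.482). Without formerly obese 6, 16 genes fell, with Ctsa, Ctsz, Hexa and Sgsh added. Igf2r, Cd68 and Cstb fell as well, by 0.55, 1.08 and 0.78 log2. Of the macrophage markers 8 of 15 fell and of those of lipid-associated macrophages 7 of 11, and their part in the result was not tested.

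No lysosomal gene was called after 48 h of HFD, with either history. In lean-HFD against lean mice 0 of 37 genes were called, where 0.00242% of all probe sets (1 probe set, with no gene listed) rose and 0% fell, and 11 genes were higher and 26 lower with a median of -0.05 log2. At an unadjusted p under 0.05 in limma, Npc1 was higher (0.24 log2, 95% interval 0.05 to 0.42) and Hexa lower (-0.30 log2, -0.57 to -0.02), against 3.09% of all probe sets higher and 2.81% lower. The intervals of the leading genes were -0.59 to 0.23 log2 for Ctsk, -0.40 to 0.11 for Ctss and -0.29 to 0.31 for Lipa. Hepatocyte transcripts were higher in lean-HFD arrays, with a higher group mean than in lean mice for all 15 measured genes, and their part in these differences was not tested.

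Formerly obese-HFD arrays were compared with formerly obese arrays with 0 of 37 genes called, 0 genes at an unadjusted p under 0.05 in limma and a median difference of 0.01 log2. Of all probe sets 0% were called, and 2.37% were higher and 2.97% lower at that unadjusted p. The intervals were wide for the genes that led in obese mice, at -1.14 to 0.83 log2 for Ctsk, -0.95 to 0.84 for Ctss and -0.62 to 0.65 for Lipa. Ctsk lay at 5.36 to 8.38 (median 6.75) in formerly obese-HFD arrays, Ctss at 8.95 to 11.55 (median 10.14), Lgmn at 7.93 to 9.70 (median 8.87) and Lipa at 8.66 to 10.10 (median 9.05). Formerly obese-HFD 1 reached the obese range of these 4 genes and formerly obese-HFD 2 that of Ctss, Lgmn and Lipa, whereas formerly obese-HFD 6 had the lowest value of Ctsk, Ctss and Lipa. The summed macrophage levels of formerly obese-HFD 1, 2 and 4 were 14015, 15307 and 12015 and those of 3, 5 and 6 were 7590, 7486 and 6131. The part of macrophages was not tested.

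Set against lean-HFD mice, formerly obese-HFD mice had no called gene among the 37 (0% of all probe sets), with 31 higher and 6 lower and a median of 0.14 log2. At unadjusted p under 0.05, 4 genes were higher and 0 lower, against 4.30% of all probe sets higher and 3.96% lower. They were Tfec (0.71 log2, 95% interval 0.18 to 1.24), Manba (0.59, 0.13 to 1.05), Hexa (0.41, 0.04 to 0.79) and Cd63 (0.20, 0.03 to 0.37), none with an adjusted p under 0.495. The test of the difference itself, whether 48 h of HFD acted differently after a history of obesity, called 0 of 37 genes and 0% of all probe sets over 24 arrays. The gene with the smallest p was Manba, with an interaction of 0.54 ± 0.28 log2 (unadjusted p in limma = 0.0636), with differences of 0.22 log2 (95% interval -0.17 to 0.62) after a history of obesity and of -0.32 log2 (-0.75 to 0.11) without one.

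Obese arrays were also set against both groups with 48 h of HFD. Against lean-HFD mice 19 of the 37 genes were higher, where 4.64% of all probe sets were higher and 3.16% lower. Of genes over the level filter with 1 probe set each, 8.47% were higher. Against formerly obese-HFD mice 9 of the 37 were higher, where 4.38% of all probe sets were higher and 3.90% lower. The matching share of genes over the level filter was 7.72%. No gene of the 37 was called lower in either. Ids passed the adjusted threshold in both, with differences of -0.24 log2 from lean-HFD (adjusted p = 0.0440) and -0.31 log2 from formerly obese-HFD mice (adjusted p = 0.0346), but its folds of 1.18 and 1.24 stayed under 1.3. Sgsh was called higher against both groups. It differed by 0.45 log2 from lean-HFD (adjusted p = 0.0453) and by 0.43 log2 from formerly obese-HFD mice (adjusted p = 0.0437). The second call was lost without formerly obese-HFD 6. Tfec was called higher against lean-HFD mice alone (0.69 ± 0.21 log2, adjusted p = 0.0614). That call was lost on leaving out lean-HFD 2, 3 or 6, or obese 2 or 6. The call of Ctsh against lean-HFD mice was lost without lean-HFD 2, 3, 4 or 5, or obese 2, 3 or 6 (adjusted p = 0.125 to 0.160). Calls lost by the fold alone were those of Ctsd without lean-HFD 3 or 6 and Tpp1 without lean-HFD 4. Against formerly obese-HFD mice, Ctsb was lost in that way without formerly obese-HFD 3. Ctss had a difference of 1.69 ± 0.20 log2 from lean-HFD (adjusted p = 4.2e-04) and of 0.99 ± 0.41 from formerly obese-HFD mice (adjusted p = 0.180). With the hepatocyte score as a covariate the counts of genes called higher against these 2 groups were 9 and 2. The score itself differed by group, at -1.83 to -0.39 in obese, -0.51 to 3.98 in lean-HFD and -1.38 to 1.03 in formerly obese-HFD arrays. Covariate and group can therefore not be fully told apart in these fits. The 4 comparisons with obese mice share the obese arrays. Across them, 8 genes were called each time (Ctsb, Ctsk, Ctsl, Galc, Gla, Gusb, Lipa and Npc2) and 17 in none.

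The folds and the separation of the groups ranked the genes differently. All 6 obese arrays lay above all 24 other arrays for 5 of the 37 genes, against 0.752% of all probe sets. These were Npc2, Ctsl, Ctsd, Tpp1 and Lamp1, all with folds of 1.41 or less in obese against lean mice and with gaps of 0.07, 0.03, 0.02, 0.01 and 0.01 log2 between the lowest obese and the highest other array. Ctsk, Ctss and Lipa, with the largest folds, had 2, 3 and 3 of the 24 other arrays above the lowest obese array, all of them formerly obese or formerly obese-HFD. The SD between arrays of a group was largest for Ctsk in obese (0.75 log2), formerly obese (0.66) and formerly obese-HFD arrays (1.07), and smallest for Lamp2 in lean (0.05), lean-HFD (0.05) and formerly obese-HFD arrays (0.03). The median SD of the 37 genes was 0.14 in lean, 0.16 in obese, 0.16 in formerly obese, 0.20 in lean-HFD and 0.24 log2 in formerly obese-HFD arrays. Over all genes it was 0.19, 0.17, 0.18, 0.19 and 0.20 log2 in the same order.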

How the data were processed

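Total RNA from gonadal fat was amplified, and the biotin-labelled cDNA was hybridized to single-color Affymetrix Mouse Gene 2.0 ST arrays. The authors deposited log2 values for each probe set, made with RMA (background correction, quantile normalization and median polish) in Affymetrix Expression Console 1.4.1.46. Quantile normalization brings the arrays to like distributions, so a shift of all genes could be removed by it. The values were used as deposited. Array medians were 4.85 to 4.97, and 23521 of 41345 probe sets had 1 gene symbol, 1820 several and 16004 none. The gene identifiers of all 37 members matched RefSeq under the same symbol.

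For each comparison, limma 3.58.1 (lmFit, eBayes; R 4.3.3) was fitted on the 12 arrays compared, or on 24 for the interaction, with Benjamini-Hochberg adjustment over all 41345 probe sets. The thresholds were those of the study (adjusted p under 0.10, fold over 1.3, level over 16), and a looser rule replaced the adjusted p by an unadjusted one under 0.01. All tests were two-sided. P-values measure the spread between samples, which the labels do not tie to single animals and which may be technical, and the number of arrays limits the precision. The scripts were tested on simulated data.

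The members, the gene lists and the rule for named genes were chosen with earlier results of these data known. Ranges are given for members called in obese mice against lean or formerly obese mice, and for Tfeb, Tfec, Mcoln1, Lipa, Npc1 and Npc2. Of other lysosomal genes the 6 with the smallest p in obese mice are named, and of marker lists at most 3 by the same rule. Sort1, Cstb, Cd163, Acp5, Lep and further adipocyte and fibroblast markers were named after their values were seen. Marker levels are sums of linear expression. Alternatives were another fit over all 30 arrays, a replicate block, robust eBayes, centering, other thresholds and filters, a hepatocyte covariate, means over probe sets and leaving out each array.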

Additional observations from a re-analysis of the deposited data

Results flagged for a closer look

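Single arrays stood apart from the other 5 of their group in 14 of 185 combinations of gene and group, where the gap to the nearest array took up more of the group's range than Dixon's critical value for 6 values. Chance flags about 1 in 20 groups. Formerly obese 6 accounted for 5 of the 14, with high log2 expression of Ctsa (9.80), Ctsk (8.33), Galc (7.28), Asah1 (9.20) and Lipa (10.15), where the next arrays lay at 9.43, 7.08, 6.82, 8.96 and 9.26. The summed macrophage marker level of that array was 13541, the highest of its group. Without it, 16 rather than 12 genes fell in formerly obese against obese mice.

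Among the other formerly obese arrays, Arsb was low on array 4 (8.72) and Tfeb high on array 1 (4.63). In formerly obese-HFD arrays Ctsc was low on array 5 (9.34) and Ctsl on array 3 (10.37). Lean-HFD 1 was high for Ctss (9.88) and lean-HFD 3 for Npc1 (7.34). Lean 5 was high for Ctsz (9.31) and lean 1 for Cd63 (10.88). Obese 6, the array with the highest summed macrophage level, was low for Gaa (7.11). The causes were not tested.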

How the results depend on the processing

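No called difference of a named gene changed direction under any alternative run. Of the values of named genes under alternatives, 1516 kept their side of the threshold, 87 lost a call and 5 gained one. The count of genes that rose in obese against lean mice (16) ranged from 12 with the hepatocyte score as a covariate (Ctsa, Ctsh, Ctsz and Hexa lost) to 21 without the fold filter, and from 15 to 17 on leaving out each array. Formerly obese against obese mice (12 fell) ranged from 8 to 16 on leaving out each array, and was 8 with an adjusted p under 0.05 or with the hepatocyte covariate (Ctss, Gusb, Psap and Npc1 lost each time). Obese against lean-HFD mice (19) gave 17 to 21 on leaving out each array but 9 with the hepatocyte covariate. Obese against formerly obese-HFD mice (9) gave 8 to 14, the latter without formerly obese-HFD 2, and also 14 with all 30 arrays in 1 fit and 2 with the hepatocyte covariate. The causes were not tested. Hepatocyte scores were mostly lower in obese arrays than in both groups with 48 h of HFD. Covariate and group can therefore not be fully told apart there. The counts of 0 stayed 0 on leaving out each array. Leaving out the 4 arrays with the highest hepatocyte scores (lean 4 and lean-HFD 1, 2 and 4), chosen after seeing the data, gave 17 and 20 genes in obese against lean and lean-HFD mice.

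Same-numbered arrays of 2 groups did not deviate together (correlations of -0.23 to 0.41, with at most 2 of 6 pairs over 0.1), so the numbers were not taken as pairs. With the replicate number as a block, 14 genes rose in obese against lean mice (Ctsa and Ctsh lost), 14 fell in formerly obese against obese mice, and 16 and 7 rose in obese against lean-HFD and formerly obese-HFD mice. The other comparisons stayed at 0 with the block. At most 2 arrays of a comparison correlated best with their own number.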
